A study of Zanthoxylum armatum with 15 samples.

Results

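Fruits were compared with roots of Zanthoxylum armatum, the green Sichuan pepper, across all unigenes that passed a low-count filter. A unigene is here the longest transcript assembled for a gene, and 57488 of 111318 unigenes passed and are the members of the comparison. Fruits and roots came from trees of the variety 'Hanyuan putaoqing' that were 3 years old, untreated as far as the labels state, and were sampled in the month of May, with full-sized fruits some 60 days past fertilization. Each organ had 3 replicates, and each replicate was material of 3 plants mixed together, so that differences between single plants are averaged within a library. Stems, leaf buds and mature leaves, also with 3 replicates each, entered the same fit and bring the libraries to 15. The fruit libraries held 19173523 to 23829321 estimated counts and the root libraries 18802274 to 20863991. A count is the number of reads assigned to a unigene, and FPKM is that number scaled to unigene length and library size. The spread between replicates was wider in roots, with a common biological coefficient of variation of 0.226 against 0.127 in fruits. In the study's table of RNA quality, every root extract had a lower integrity number than every fruit extract, so integrity and organ cannot be told apart.

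Z. armatum is grown for fruits whose oil glands hold volatile terpenoids and whose pericarp carries the amides behind its numbing taste. Terpenoids are built from isopentenyl diphosphate, which plants make by the mevalonate (MVA) pathway in the cytosol and the methylerythritol phosphate (MEP) pathway in plastids. Prenyl diphosphate synthases join these units, and terpene synthases turn the products into mono-, sesqui- and triterpenoids. Unsaturated fatty acids are the acyl part of the numbing amides. Fatty acid synthesis also supplies the cutin and waxes of aerial organs and the suberin of roots. Roots take up nitrate, lignify their vessels and, growing in the dark, are not green.

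The unigene identifiers belong to this assembly alone. The primer pairs that the study designed are therefore printed for 5 unigenes that were higher in fruits and had 3 or fewer counts over the root libraries, as the sequences by which they can be found again. They are given 5′ to 3′ in lower case, with no part marked. Of 24 pairs in all, 17 belong to unigenes described by name here.
Cluster-12235.42000 (monoterpene synthase), forward: ctgcgacaaatccaatcatagagaa
Cluster-12235.42000 (monoterpene synthase), reverse: ctcctctctttaattcgtccgatga
Cluster-12235.42010 (TPS03), forward: gcaggaagatacttacgcaggtc
Cluster-12235.42010 (TPS03), reverse: tttcatgtaatctggaagcggtt
Cluster-12235.40340 (GGPPS12), forward: gcctagtcttattcccaaatccaag
Cluster-12235.40340 (GGPPS12), reverse: gtgttatctcaaccatagcccgta
Cluster-12235.42665 (chalcone synthase), forward: cttatccagaaccgtgcctcag
Cluster-12235.42665 (chalcone synthase), reverse: aagtataaacaggacgcttggacc
Cluster-12235.42500 (aromatic amino acid decarboxylase family), forward: tgctggcagtgcatgtatttgt
Cluster-12235.42500 (aromatic amino acid decarboxylase family), reverse: cgggtcagtactcagagctttgac

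Fruits and roots differed in a large part of the transcriptome. In total, 19471 unigenes, or 33.9% of those tested, were differentially expressed genes (DEGs), which had an adjusted p under 0.05 (edgeR quasi-likelihood test, Benjamini-Hochberg) and a log2 fold change beyond 1 in either direction. Of these, 10175 (17.7% of those tested) were higher in fruits and 9296 (16.2%) were lower. The higher group thus made up 52.3% of the calls, but 36.8% when libraries were scaled by their totals alone, a scaling that moved the median log2 fold change of all unigenes from 0.0 to -0.31. The median log2 fold change was 2.21 among those higher and -1.91 among those lower, with a median SE of 0.32. Among them, 1417 higher unigenes had no count in any root library and 783 lower unigenes had none in any fruit library. With these set to the smallest difference that a floor of 3 counts over the 3 libraries allows, the medians were 2.09 and -1.90. Normalized counts of the 3 fruit and 3 root libraries did not overlap for 55.8% of all unigenes tested and for 95.5% of the DEGs. A further 11106 unigenes passed the p threshold with a log2 fold change within 1.

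Large differences were found in both directions. Beyond a log2 fold change of 2, 5629 unigenes were higher and 4384 lower. Beyond 5 the numbers were 1986 and 1275, and beyond 10 they were 250 and 71. These are counts of fitted values, which depend on the prior count for unigenes without a count in 1 organ. Which direction held more calls at the threshold of 1 depended on the libraries fitted, since the 6 fruit and root libraries alone gave 7823 higher and 9207 lower.

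**Figure D1:**
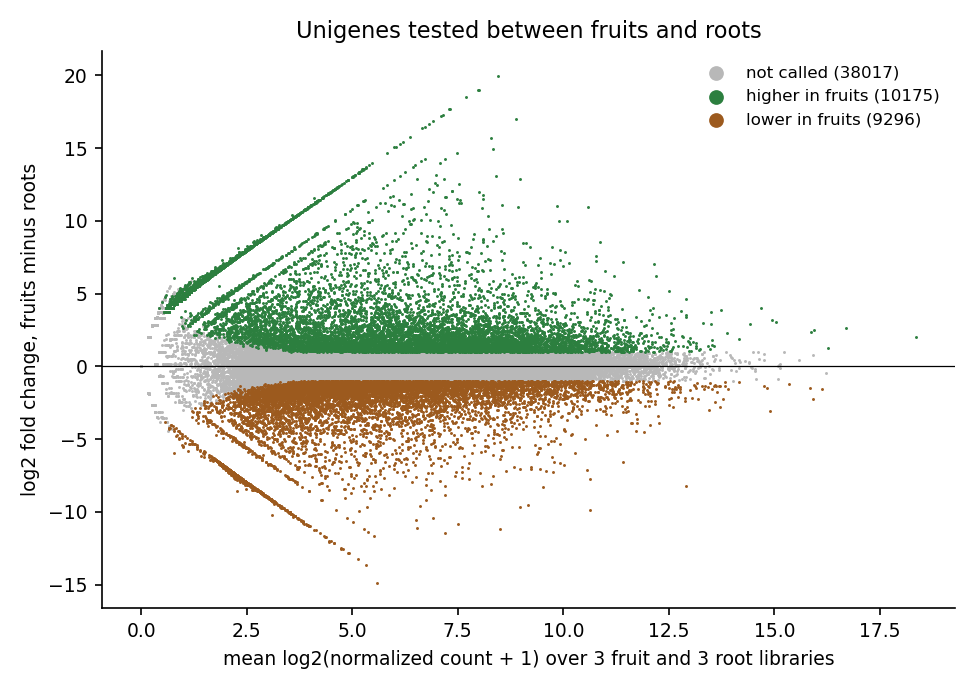
Log2 fold change (fruits minus roots, vertical axis) against mean log2(normalized count + 1) over the 6 libraries (horizontal axis) for the 57488 unigenes tested, each a point; 10175 are higher in fruits (green), 9296 lower (brown) and 38017 not called (grey). The diagonal edges are unigenes with a count of 0 or nearly 0 in 1 organ, whose fitted values depend on the prior count.

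The part of the reads held by the DEGs is given as a description. The calls used these same counts, so the direction of the shares is fixed by the calls. They held 40.9% ± 1.21 of the counts in fruits and 9.48% ± 0.084 in roots (SD, n = 3). Those lower in fruits held 5.38% ± 0.075 of the fruit counts and 27.2% ± 0.98 of the root counts. The 1986 unigenes beyond a log2 fold change of 5 held 11.1% ± 0.46 of the fruit counts and 0.0735% ± 0.0023 of the root counts. In all 6 libraries the unigene with most counts was Cluster-12235.42566, which has no name in the study's tables. It took 3.02, 2.99 and 2.37% of the counts in the fruit libraries and 0.801, 0.749 and 0.975% in the root libraries, with a log2 fold change of 2.04 ± 0.15 (SE).

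Set among the 5 organs, the differences lay more often on the root side. Of the 10175 unigenes higher in fruits, 7596 (74.7%) had their lowest mean in roots, while 3199 (31.4%) had their highest mean in fruits and 4092 (40.2%) in mature leaves. Of the 9296 lower in fruits, 7231 (77.8%) had their highest mean in roots and 3629 (39.0%) their lowest in fruits. These shares are a description, since the calls and the means share the fruit and root libraries.

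**Figure D2:**
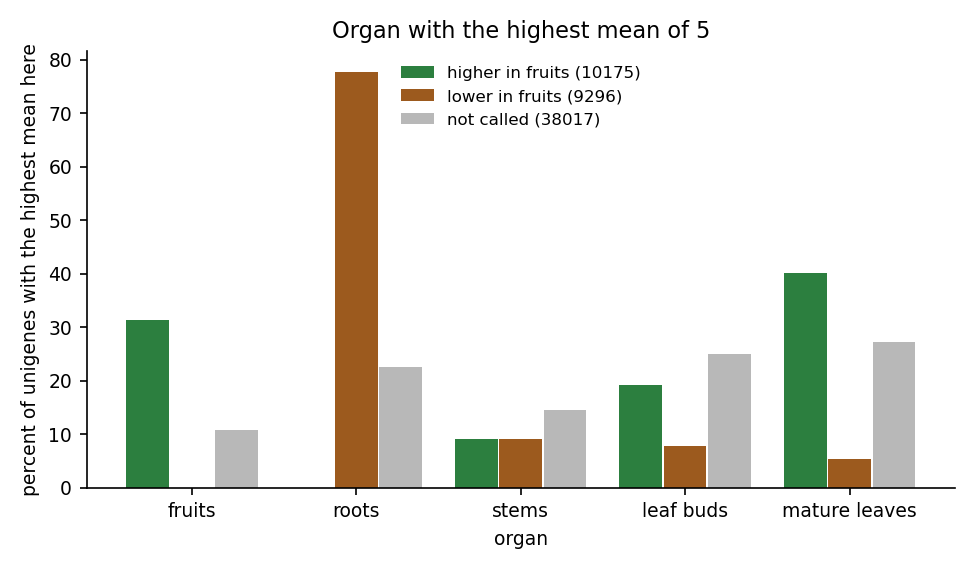
Percent of unigenes (vertical axis) whose highest mean of 5 organs lies in each organ (horizontal axis), for unigenes higher in fruits (green), lower in fruits (brown) and not called (grey). Roots were highest for 77.8% of the unigenes lower in fruits, and mature leaves for 40.2% and fruits for 31.4% of those higher.

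The fruit libraries showed the marks of green tissue. Antenna proteins, which bind the chlorophyll that gathers light, were higher in fruits for 18 of 18 unigenes tested in the KEGG row of that name. Among these, Cluster-12235.43098 had FPKM values of 2191, 2513 and 2300 in fruits and 0.92, 1.37 and 1.96 in roots. In the photosynthesis row 14 of 16 tested were higher and 0 lower. Over all unigenes tested 17.7% were higher. Both rows are held in part, with 20 of 34 antenna and 20 of 89 photosynthesis identifiers. The carbon fixation row, also held in part, had only 5 higher and 1 lower of 15. A Rubisco small subunit unigene, Cluster-12235.42921, had FPKM values of 4239, 4332 and 3916 in fruits and 0.43, 1.36 and 0 in roots. Its mean was 31585 in mature leaves. A second small subunit unigene, Cluster-12235.42084, had 208, 204 and 177 in fruits and no count in roots, which makes it at least 564-fold higher in fruits. Another, Cluster-12235.62198, did not differ beyond its error, with 16.6, 17.2 and 18.4 in fruits and 18.4, 19.7 and 26.2 in roots and a log2 fold change of -0.01 ± 0.17 (SE). On the root side, 2 unigenes are named nitrate transporter, Cluster-8273.0 and Cluster-3810.0. They had FPKM values of 1.51 to 2.18 in the root libraries and no count in fruits. They were at least 55.6-fold and 42.3-fold lower in fruits. Both lie outside Cluster-12235, the largest cluster of the assembly. The KEGG name of Cluster-8273.0 also lists narK, nrtP and nasA, and whether either unigene is of plant origin was not tested. CYP86A1, the fatty acid hydroxylase of root suberin, was seen at low counts as Cluster-12235.68875, with 5.47, 4.14 and 6.24 in roots and 0 in fruits. The Rubisco, nitrate transporter and CYP86A1 names stand only in lists of unigenes that the study had called on these same libraries. Their direction is therefore fixed in part by that choice and is no independent mark of an organ. In these mixed organs, fewer cells of a type and less RNA per cell cannot be told apart.

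KEGG pathway rows of the study's annotation, made from sequence, were used to describe the calls. Only the first identifiers of most rows are held here, and 31 rows with 609 unigenes were described, 3 of them complete. Of their 440 tested unigenes 195 were higher in fruits and 56 lower, with a median log2 fold change of 0.96, or 0.87 with unigenes at 0 in 1 organ set to their bound. Over all unigenes tested 17.7% were higher and 16.2% lower, and the median was 0.0. The 31 rows were chosen with earlier results of these data known, so their shares and median do not stand for the annotation as a whole. Rows with a larger share higher than the background of 17.7% included sesquiterpenoid and triterpenoid biosynthesis, with 12 of 15 higher and 0 lower. They also included alpha-linolenic acid metabolism, with 12 of 16 higher and 0 lower, and terpenoid backbone biosynthesis, with 14 of 19 higher and 1 lower. Porphyrin and chlorophyll metabolism had 6 of 10 higher and 0 lower, cutin, suberine and wax biosynthesis 13 of 18 higher and 2 lower, and starch and sucrose metabolism 7 of 16 higher and 2 lower. Phenylpropanoid biosynthesis, which leads to lignin, was the row with the largest share lower among the 31, with 11 of 18 lower and 5 higher.

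Rows of basic cell functions varied. DNA replication had 0 of 19 unigenes called in either direction by the edgeR quasi-likelihood test, the edgeR exact test or the DESeq2 Wald test. Its median log2 fold change was -0.04. In the quasi-likelihood test 7 had an unadjusted and 5 an adjusted p under 0.05, all with a log2 fold change within 1. The proteasome row had 1 of 10 higher and the spliceosome row 2 higher and 1 lower of 15, both below the background of 33.9% called. In the ribosome row, above that background, 4 of 10 were higher and 1 lower, but 13 of its 23 unigenes were too sparse to be tested.

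**Figure D3:**
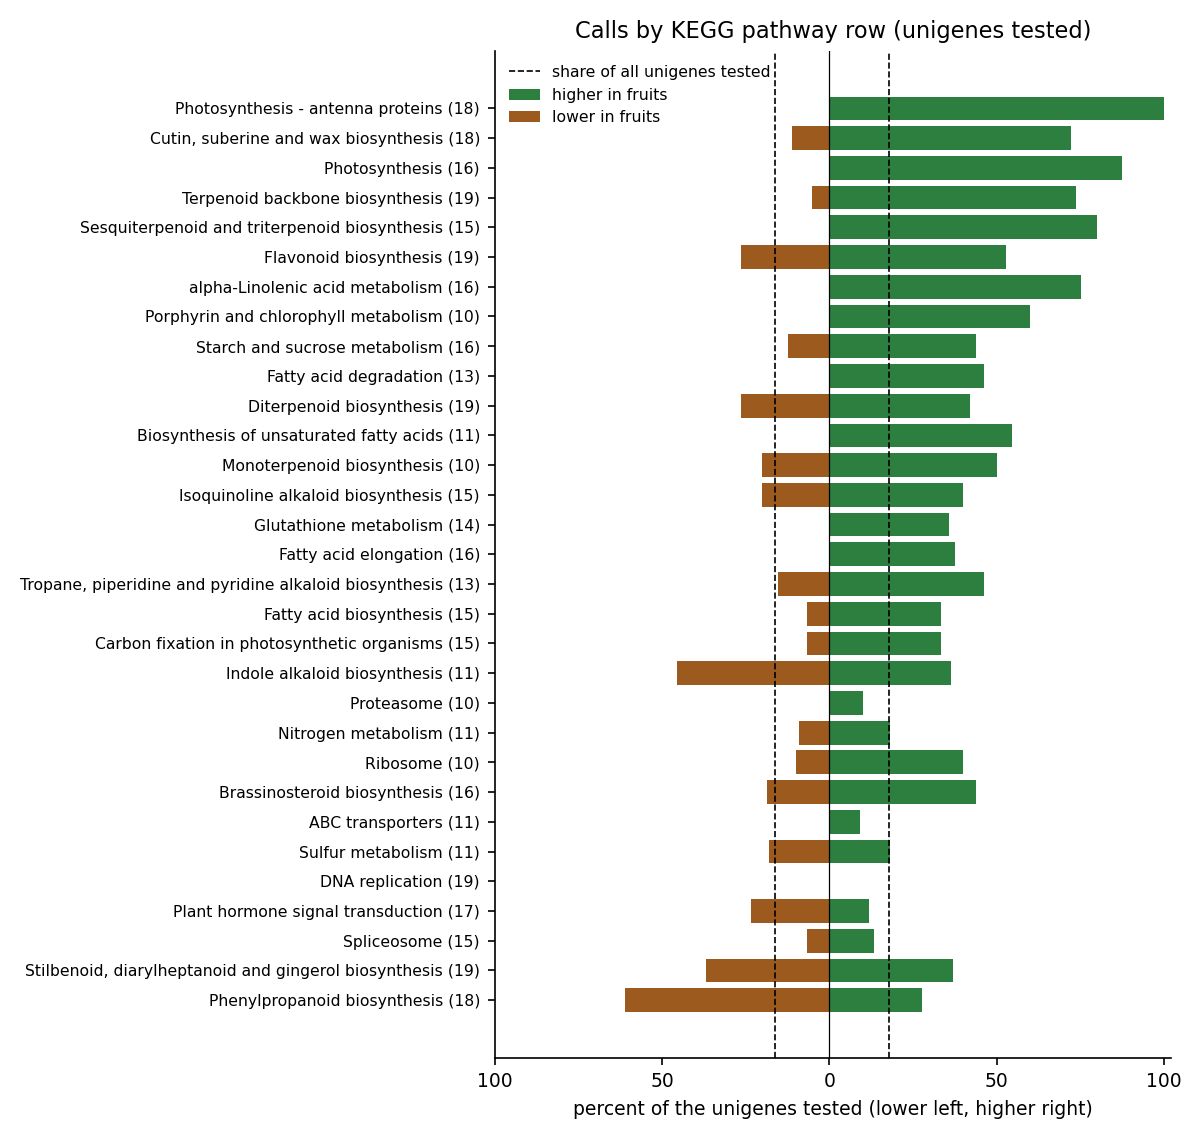
Percent of the unigenes tested in each of 31 KEGG rows (vertical axis, number tested in brackets) that were higher in fruits (green, to the right) or lower (brown, to the left); dashed lines mark the shares over all unigenes, 17.7% higher and 16.2% lower. Antenna proteins lie at 100% higher, DNA replication at 0, and phenylpropanoid biosynthesis at 61.1% lower.

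Flavonoid biosynthesis had 10 of 19 higher and 5 lower, diterpenoid biosynthesis 8 higher and 5 lower of 19, and the stilbenoid, diarylheptanoid and gingerol row 7 in each direction of 19. Brassinosteroid biosynthesis, held complete, had 7 higher and 3 lower of 16. Of the fatty acid rows, biosynthesis had 5 higher and 1 lower of 15, elongation 6 higher of 16, degradation 6 higher of 13 and unsaturated fatty acids 6 higher of 11, with 0 lower in these last rows. Carbon fixation had 5 higher and 1 lower of 15, glutathione metabolism 5 higher and 0 lower of 14, and nitrogen metabolism 2 higher and 1 lower of 11. The isoquinoline alkaloid row had 6 higher and 3 lower of 15 and the tropane, piperidine and pyridine alkaloid row 6 higher and 2 lower of 13. Plant hormone signal transduction had 2 higher and 4 lower of 17, sulfur metabolism 2 in each direction of 11, and ABC transporters 1 higher and 0 lower of 11.

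Single enzymes could be followed where the study's tables name a unigene, which they do for 244 unigenes in 66 enzyme or protein roles. All of these names stand in tables of unigenes that the study had called on these same libraries, 100 of them in tables for fruits and 117 in tables for roots. Counts by role are therefore fixed in part by that choice and are no independent evidence of direction. Of the 230 tested, 164 were higher in fruits and 49 lower. Members of a family can be near-identical copies among which reads are shared, and the strand of the libraries was not stated, so that reads of overlapping antisense transcripts cannot be told apart.

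Both routes to the terpenoid backbone were higher in fruits at every step that is named. In the MVA pathway, 7 of 7 tested unigenes were higher, 7 of the 8 listed having been chosen for fruits. HMG-CoA reductase (HMGR), the rate-limiting step, was Cluster-12235.40934, with FPKM values of 209, 261 and 217 in fruits and 8.83, 8.40 and 9.27 in roots. Its log2 fold change of 5.0 ± 0.13 (SE; adjusted p 3.55e-17) was the largest of the pathway. Acetoacetyl-CoA thiolase (ACAT2, Cluster-12235.42348), which makes the first intermediate, had a log2 fold change of 2.12 ± 0.09, and HMG-CoA synthase (Cluster-12235.37004) of 3.79 ± 0.16. Mevalonate kinase (MVK1, Cluster-12235.37800) was at 7.52, 9.26 and 7.79 in fruits and 2.77, 2.27 and 1.79 in roots, a log2 fold change of 2.15 ± 0.23. Phosphomevalonate kinase (PMVK, Cluster-12235.28045), the next step, was at 11.1, 13.5 and 12.1 against 7.97, 6.35 and 6.16, a log2 fold change of 1.16 ± 0.11. PMVK dropped within the threshold, at 0.84, when libraries were scaled by their totals alone.

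In the plastid MEP pathway, 19 of 19 unigenes were higher in fruits, 17 of them chosen for fruits, with log2 fold changes of 1.51 to 7.63. Deoxyxylulose phosphate synthase (DXS) opens the pathway and had the widest range, from 1.51 to 7.63 over 9 unigenes. Cluster-12235.38538 was at 177, 242 and 208 in fruits and 1.38, 1.58 and 0.83 in roots (log2 fold change 7.63 ± 0.25, adjusted p 9.92e-16). Cluster-12235.38535 was at 214, 317 and 299 against 2.99, 0.94 and 1.72 (7.31 ± 0.28). Cluster-12235.46034 was also high in fruits, at 292, 353 and 285 against 6.39, 7.73 and 5.42 (5.89 ± 0.16). The kinase ISPE in the middle of the pathway (Cluster-12235.31323) was clearly expressed in both organs, at 71.2, 79.4 and 70.2 in fruits and 26.8, 27.3 and 30.1 in roots (1.70 ± 0.10). The synthase GCPE (Cluster-12235.41588), the step before the last, was at 423, 539 and 445 against 74.9, 77.2 and 72.6 (2.95 ± 0.11). The fruit and root libraries did not overlap for any of these 5 unigenes, as held for 95.5% of all DEGs and 55.8% of all unigenes tested.

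Some prenyl diphosphate synthases and terpene synthases were nearly or wholly without counts in roots. GGPPS12 (Cluster-12235.40340), annotated after the Arabidopsis small subunit of geranylgeranyl diphosphate synthase, was at 676, 770 and 625 in fruits with no count in any root library. It was at least 20594-fold higher in fruits (adjusted p 2.88e-15), and its mean was 5.61 in leaf buds, 0.65 in mature leaves and 0.577 in stems. A second synthase, Cluster-12235.54676, was at 2.33, 2.82 and 3.19 in fruits and also without a count in roots (at least 47.4-fold). All 5 unigenes of the prenyl diphosphate group, 1 of which is named FOLK and not as such a synthase, were higher, and all 5 had been chosen for fruits.

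The monoterpenoid row is complete and was built without regard to expression, and it split. The monoterpene synthase Cluster-12235.42000 was at 1715, 1860 and 1557 in fruits with no count in roots, at least 26244-fold higher. TPS03 (Cluster-12235.42010), named after an Arabidopsis ocimene synthase, was at 1148, 1380 and 1198 in fruits and at 0, 0 and 0.08 in roots. With 157629 counts in fruits and 3 in roots, its ratio was 60796, with a 95% interval of 20803 to 294808 that covers counting error only. In both, the other aerial organs lay between, with means of 3.98 in mature leaves, 9.12 in stems and 17.7 in leaf buds for Cluster-12235.42000. Of the other 8 unigenes tested in the row, 3 were higher by log2 fold changes of 1.55 to 1.81, 3 were not called and 2 were lower. The lower pair, Cluster-12235.503 and Cluster-12235.504, was at 1.51 to 2.45 in the root libraries and without a count in fruits.

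The group of terpene synthases listed here has 19 unigenes, 2 of them the cytochrome P450 CYP82G1. Of the 19, 12 had been chosen for fruits and 10 for roots, some for both. Among 8 unigenes named germacrene D synthase (GERD), 7 were higher in fruits and 1 lower. The exception, Cluster-12235.1957, was at 0.80, 1.02 and 0.52 in fruits and 17.7, 17.2 and 16.3 in roots, a log2 fold change of -4.13 ± 0.21 (adjusted p 1.03e-12). The nerolidol synthases (2 of 2), the homoterpene-forming cytochrome P450 CYP82G1 (2 of 2) and the beta-amyrin synthases (2 of 2) were higher as well, although the beta-amyrin synthases stayed at or below an FPKM of 1.30 in every fruit library.

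**Figure D4:**
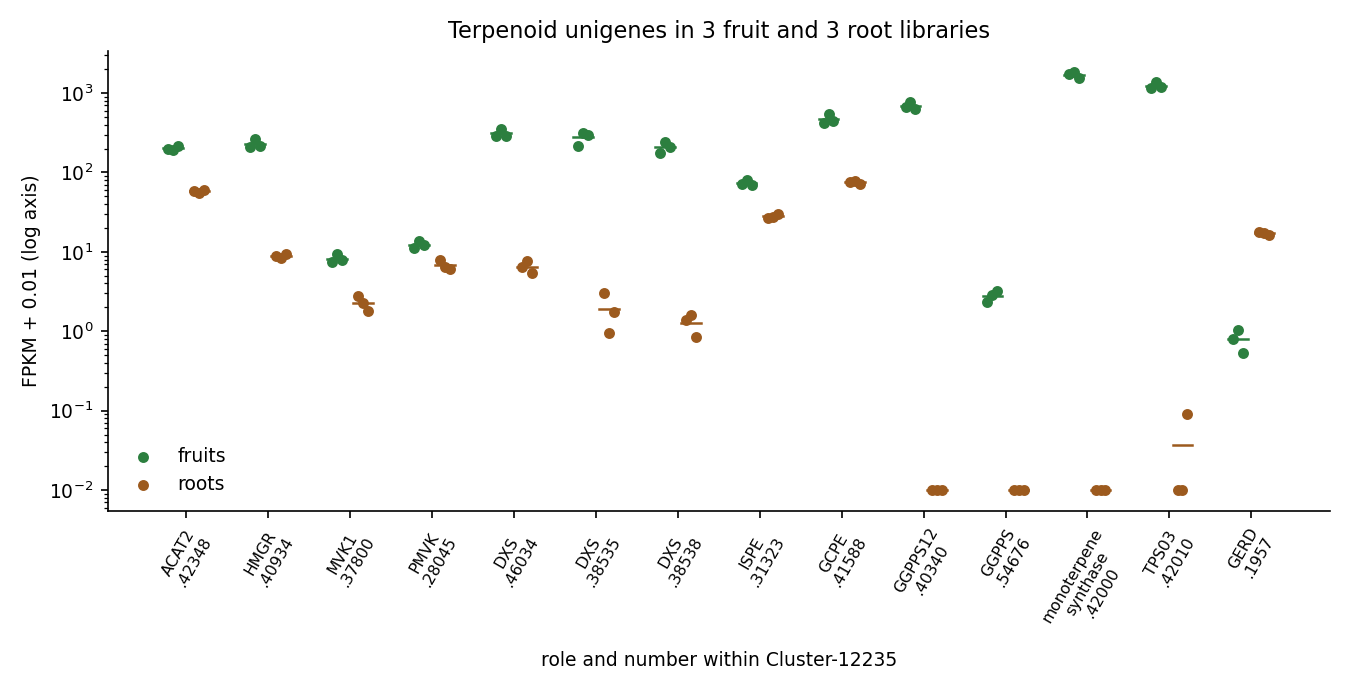
FPKM + 0.01 on a log axis (vertical) for 14 terpenoid unigenes (horizontal, role and number within Cluster-12235) in the 3 fruit libraries (green) and 3 root libraries (brown), with bars at the means. Fruits lie above roots for every unigene shown except the germacrene D synthase Cluster-12235.1957, and points at 0.01 have no count.

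Phenylpropanoids are made from phenylalanine and lead to lignin, and chalcone synthase (CHS) draws them into flavonoids. Flavonoid enzymes were mainly higher in fruits, with 7 of 8 CHS unigenes and all named unigenes of flavanone 3-hydroxylase (1), flavonol synthase (2), dihydroflavonol reductase (1) and anthocyanidin synthase (2). The CHS unigene Cluster-12235.42665 was at 5809, 3786 and 6233 in fruits and 0.12, 0 and 0 in roots. Its 384375 fruit counts against 3 root counts gave a ratio of 148249 (95% interval 50728 to 718878, counting error only). The flavonol synthase Cluster-12235.39242 was at 126, 138 and 107 against 0, 0.02 and 0, a ratio of 27188 resting on 1 root count (4879 to 1073899).

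The hydroxycinnamoyl transferases (HCT), which sit upstream of lignin and of many esters, had 8 higher, 4 lower and 1 not called of 13, with log2 fold changes down to -7.59. Across the 50 unigenes of the group, 30 were higher and 16 lower. Of the 50, 13 had been chosen for fruits and 31 for roots.

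Enzymes of amino acid and alkaloid routes also had members for each organ. Aromatic amino acid decarboxylases and their relatives, the aromatic aldehyde synthases, remove the carboxyl group of tryptophan, tyrosine or phenylalanine. Cluster-12235.42500 was at 193, 146 and 146 in fruits and 0, 0 and 0.07 in roots (ratio 8965, 95% interval 2481 to 74033, from 2 root counts). Cluster-12235.53539 was at 32.5, 36.6 and 30.4 against 0, 0 and 0.04. In contrast, Cluster-12235.9280 was at 0.58, 2.40 and 0.22 in fruits and 93.4, 106 and 96.7 in roots. Its log2 fold change of -6.15 ± 0.35 became -7.64 without fruit replicate 2, the library with its highest fruit value. Cluster-12235.2697 had 6.05, 6.56 and 3.98 in roots and no count in fruits (at least 66.3-fold lower). The complete indole alkaloid row, to which these unigenes belong, had 4 higher and 5 lower of 11 tested. Tyrosine aminotransferase was higher in 3 of 3.

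Tropinone reductases, short-chain dehydrogenases of the tropane alkaloid row, had 7 higher and 2 lower of 9, all chosen for roots, where the study's choice holds unigenes that are high or low in an organ. The pair lower in fruits, Cluster-12235.77186 and Cluster-12235.77322, was at 29.0, 25.6 and 31.2 and at 30.6, 25.5 and 33.5 in roots. The first had no count in fruits (at least 116-fold lower), and the second had 3 (ratio of roots to fruits 902, 308 to 4376). Cluster-12235.35687 was at 22.2, 22.5 and 19.2 in fruits and at 0 in roots, at least 130-fold higher, and Cluster-12235.7385 at 1.01, 1.56 and 1.35 against 0, at least 55.9-fold higher.

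**Figure D5:**
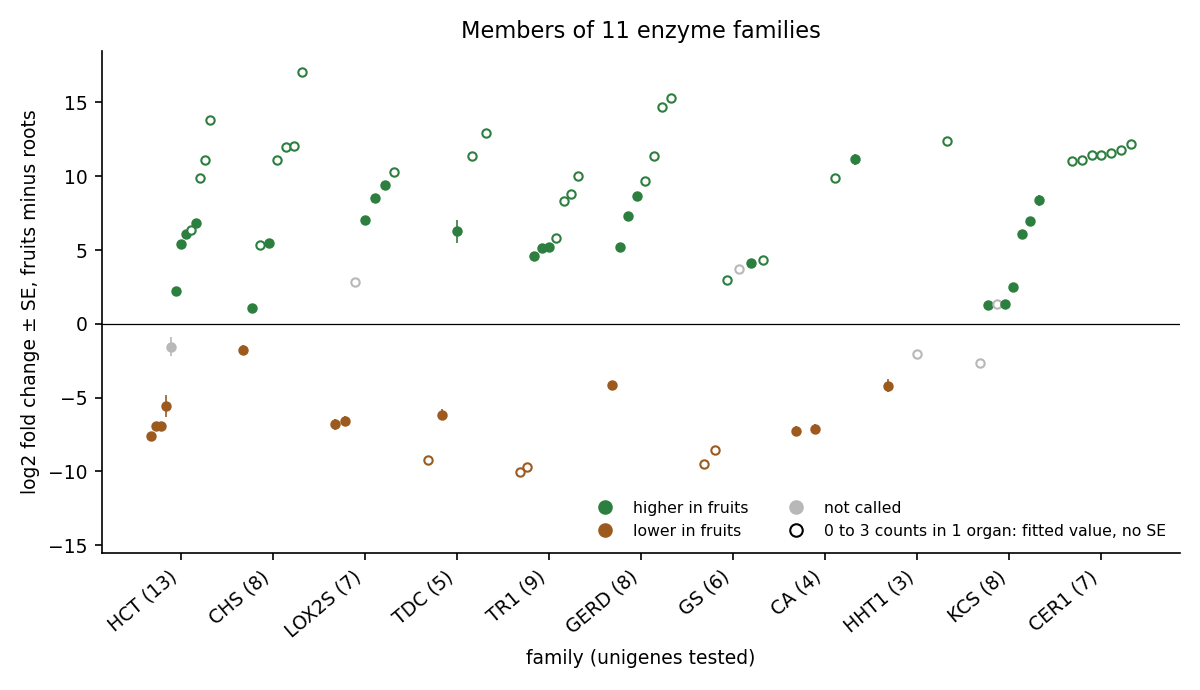
Log2 fold change ± SE (fruits minus roots, vertical axis) of each unigene tested in 11 enzyme families (horizontal axis, number tested in brackets); green is higher in fruits, brown lower and grey not called, and open circles have 0 to 3 counts in 1 organ, so that their position is a fitted value and no bound. All 7 CER1 members are higher, HCT has 8 higher and 4 lower of 13, and 9 of the 11 families hold unigenes called in both directions.

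Fatty acid synthesis was higher in fruits for 9 of 9 named unigenes, all chosen for fruits. Ketoacyl-ACP synthase II (KASII), which extends palmitoyl to stearoyl chains, was at 96.4, 108 and 97.5 in fruits and 37.4, 38.6 and 39.9 in roots in Cluster-12235.36948 (log2 fold change 1.69 ± 0.09). The acyl-ACP desaturase AAD5, which places the first double bond, differed more. Its unigenes Cluster-12235.42753 and Cluster-12235.43479 were at 534, 268 and 397 against 27.7, 33.2 and 29.0 (4.05 ± 0.21) and at 103, 92.6 and 92.8 against 13.4, 11.6 and 14.2 (3.20 ± 0.12). The reductase FabG had a low unigene outside the largest cluster, Cluster-26137.0, at 0.81, 2.11 and 1.05 in fruits and 0 in roots (at least 21.6-fold). Ketoacyl-CoA synthases (KCS) make very-long-chain fatty acids, and 6 of 8 were higher and 0 lower. KCS6 (Cluster-12235.44549), known for its part in cuticular wax in Arabidopsis, was at 163, 164 and 209 against 1.90, 1.58 and 1.83 (6.96 ± 0.17, adjusted p 1.93e-17). A KCS10 unigene (Cluster-12235.48286) was at 82.5, 61.2 and 70.0 against 0.10, 0.65 and 0, and its log2 fold change of 8.37 ± 0.37 became 10.31 without root replicate 2.

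Of the 25 surface lipid unigenes tested, 21 were higher in fruits and 2 lower. Of the 25 listed, 11 had been chosen for fruits and 20 for roots, some for both. All 7 unigenes of CER1, which forms the alkanes of wax, were higher, at 12.4 to 130 in the fruit libraries and at no more than 0.12 in the root libraries. All 5 CYP86A4S hydroxylases were higher, whereas CYP86A1 was lower as given above. A fatty acyl-CoA reductase (Cluster-12235.39471) was at 76.1, 75.7 and 62.4 in fruits and 0 in roots, at least 913-fold higher. The feruloyl transferase HHT1, which links ferulate to hydroxy fatty acids, had a unigene for each organ. Cluster-12235.21255 was at 22.1, 17.0 and 22.1 in fruits and 0 in roots, at least 666-fold higher. Cluster-12235.2799 was at 1.40, 2.51 and 0.30 against 33.0, 37.0 and 27.4, a log2 fold change of -4.19 ± 0.42 that became -4.93 without fruit replicate 2.

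Beta-oxidation shortens fatty acids in peroxisomes. Of the 13 tested unigenes grouped under it here, 12 were higher in fruits, with 12 of the 17 listed chosen for fruits. The acyl-CoA synthetase LACS1 (Cluster-12235.45063) was at 49.1, 48.9 and 61.7 in fruits and 1.95, 2.0 and 2.27 in roots (log2 fold change 4.99 ± 0.15). The study places it in fatty acid degradation, but its Arabidopsis namesake is also called CER8. A part of this unigene in peroxisomes is therefore not shown by its values. Acyl-CoA oxidase ACX3 (Cluster-12235.39988) takes the first step of the cycle and was at 76.4, 86.9 and 80.8 against 31.2, 33.1 and 31.5 (1.66 ± 0.09). The multifunctional protein MFP2 (Cluster-12235.50349) differed more, at 81.5, 86.9 and 79.1 against 6.82, 7.53 and 8.77 (3.72 ± 0.16). The thiolase KAT2 (Cluster-12235.55699), which releases acetyl-CoA, was at 112, 146 and 129 against 50.4, 54.6 and 69.3 (1.37 ± 0.16). 3 further thiolase unigenes outside the largest cluster were seen only in roots, at FPKM values of 0.56 to 4.41, and were too sparse to be tested.

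Lipoxygenases (LOX2S) add oxygen to linoleic and linolenic acid, and the hydroperoxides are cut by hydroperoxide lyase (HPL) into leaf aldehydes or led to jasmonate. Of the 12 unigenes listed in this branch, 10 had been chosen for roots. Of 7 LOX2S unigenes, 4 were higher in fruits, 2 lower and 1 not called. The lower pair had high levels in roots, with Cluster-12235.10347 at 390, 454 and 331 against 3.36, 2.95 and 2.11 in fruits (log2 fold change -6.81 ± 0.35, adjusted p 1.28e-12). Cluster-12235.10348 was at 204, 225 and 148 against 1.88, 1.59 and 1.46 (-6.55 ± 0.28). The most abundant in fruits, Cluster-12235.43048, was named after its values were seen. It was at 1130, 1253 and 1002 against 14.96, 19.2 and 12.9 in roots (7.06 ± 0.19), with a mean of 1494 in mature leaves. Both HPL unigenes were higher in fruits, Cluster-12235.49228 at 120, 140 and 115 against 0.09, 0.14 and 0 (10.82 ± 0.22) and Cluster-12235.49233 at 59.5, 76.4 and 67.0 against 0.10, 0 and 0.08 (10.32 ± 0.25). Each moved upward by over 1.5-fold without 1 root library, to 11.46 without replicate 2 and to 10.96 without replicate 1. The oxophytodienoate reductases of the jasmonate route were higher in 3 of 3.

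Unigenes grouped here under nitrogen assimilation were split between the organs, with 5 higher and 6 lower of 13 tested. The group is wider than its name. The 13 were 6 glutamine synthetases, 4 carbonic anhydrases, 2 nitrate transporters and 1 unigene named CYNS. Of the 17 listed, 15 had been chosen for roots. Carbonic anhydrase had 2 unigenes for each organ. Cluster-12235.34421 was at 394, 397 and 382 in fruits and 0, 0.58 and 0 in roots, with 4 root counts in all, and its mean in mature leaves was 5487. Cluster-12235.34422 was at 4.56, 3.96 and 3.22 against 0 (at least 120-fold). The carbonic anhydrases lower in fruits, Cluster-12235.20004 and Cluster-12235.77140, were named after their values were seen and were at 33.8 to 42.2 in the root libraries and at 0.04 to 0.34 in the fruit libraries. Glutamine synthetase, which fixes ammonium, had 3 higher, 2 lower and 1 not called of 6 tested. Cluster-12235.2000 was at 4.08, 3.72 and 2.59 in roots and 0 in fruits (at least 81.2-fold lower, adjusted p 5.28e-07), but its adjusted p was 0.133 in the DESeq2 Wald test.

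Auxin and cytokinin unigenes were lower in fruits in 18 of 29 tested and higher in 7. Of the 33 listed, 7 had been chosen for roots, 6 as lower in fruits and 20 only for other organs, so the direction of some was fixed by that choice. The auxin influx carriers (AUX1, 5 of 5) and the Aux/IAA repressors (4 of 4) were lower. Among the repressors, Cluster-12235.10759 was at 0, 0.07 and 0 in fruits and 2.54, 1.56 and 3.12 in roots (ratio of roots to fruits 74.8, 20.4 to 622, from 2 fruit counts). Auxin-conjugating GH3 enzymes were higher in 2 of 2, Cluster-12235.22106 being at 4.67, 6.05 and 3.05 against 0, 0 and 0.06 (ratio 316, 87.0 to 2615). A small auxin-up RNA (SAUR), Cluster-12235.6832, was at 1.81, 1.48 and 1.87 against 0 (at least 21.6-fold), while 3 of the 6 tested SAURs were lower. Isopentenyltransferases, which open cytokinin synthesis, were lower in 2 of 4, and cytokinin dehydrogenases, which break cytokinins down, were higher in 2 of 2. The glucosyltransferase of cis-zeatin (Cluster-21590.0) was at 0.12, 0 and 0.04 in fruits and 4.35, 4.23 and 3.54 in roots, a log2 fold change of -5.91 ± 0.62. It lay at -7.23 without fruit replicate 1 and at -5.27 without fruit replicate 2.

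Among unigenes with a mean of at least 100 normalized counts in fruits or roots, the 2 largest log2 fold changes in each direction belonged to unigenes without a name in the study's tables. Cluster-12235.42671 was at 52895, 34512 and 52360 in fruits with no count in roots, at least 125864-fold higher. Cluster-12235.42861 was at 1652, 1200 and 1779 against 0, at least 66859-fold higher, with means under 1 FPKM in the 3 other organs. In the other direction, Cluster-12235.3028 was at 52.8, 60.4 and 50.4 in roots and 0 in fruits, at least 1403-fold lower. Cluster-12235.3059 was at 57.6, 4.57 and 17.8 in roots, a spread that leaves its level poorly known, and at 0 in fruits (at least 3328-fold lower). Its fitted log2 fold change of -14.85 ± 1.63 became -13.64 without root replicate 1.

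Of the 59 unigenes that the rule selected, 42 were higher in fruits and 17 lower. Fruits had the highest mean FPKM of the 5 organs for 34 of the 42, and roots for 17 of the 17. Over all DEGs, fruits had the highest mean for 31.4% of those higher in fruits, and roots for 77.8% of those lower. The 59 were chosen for large differences between fruits and roots, or because the study's text names them. How often fruits or roots were highest among the 59 is therefore fixed in part by that choice. It is no independent evidence of organ specificity.

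Detection in 1 organ alone was common but concerned few reads. Counts were present in fruits and not in roots for 11988 unigenes, which held 2.07 to 2.71% of the fruit counts, and 10744 were present in roots alone with 0.337 to 0.372% of the root counts. Their median summed counts were 3 and 6, so most lie near the limit of detection. With at least 10 summed counts required, 2410 remained for fruits and 3525 for roots. Of these, 1417 for fruits and 2726 for roots lay outside Cluster-12235, as did 32278 of all 111318 unigenes.

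Most unigenes of the assembly that draw reads carry the prefix Cluster-12235. The 32278 unigenes of all other clusters held 0.307, 0.317 and 0.285% of the counts in fruits and 0.499, 0.494 and 0.552% in roots. The 3 root libraries lay above the 3 fruit libraries, and the ratio of the means was 1.70 (exact two-sided permutation test, p = 0.1, the smallest p that 3 against 3 allows). Of the 3865 unigenes tested there, 25.7% were higher in fruits and 27.4% lower, against 17.1% and 15.4% of the 53623 tested in Cluster-12235. A unigene could pass the low-count filter through 1 organ alone, which favors sparse unigenes that are high in only 1 organ. Part of the difference between these shares can follow from the filter, and how much was not tested.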

How the data were processed

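Fruits and roots were taken from 15 libraries of 5 organs, 3 per organ, sequenced on an Illumina platform and assembled without a genome. Per the labels, base calling used CASAVA 1.8, and the aligner and counter are not given in the sources used here. Reads were cleaned before assembly. The authors deposited 2 values per unigene and library, the estimated count of reads and FPKM. FPKM served for the levels printed, as deposited, and no test used them. Estimated counts, once rounded to whole numbers, were tested with edgeR 4.0.16 (R 4.3.3), its quasi-likelihood test with TMM factors, its default filter (minimum count 10, total 15), all 15 libraries in 1 fit with 10 residual degrees of freedom, and Benjamini-Hochberg adjustment over all unigenes tested. Log2 fold changes are fruits minus roots with a prior count of 0.125, and SEs come from the F statistic. P-values measure the spread between pools of 3 plants. Differences against an organ without counts are bounds from a floor of 3 counts over its libraries, and ratios with 1 to 3 counts carry an exact 95% interval for counting error only. On simulated counts with 200 changed unigenes, 193 (96.5%) were recovered, with 3 false calls among 54614 tested. The simulation changed only these 200, all above 1 CPM, and gave a unigene the same spread in every organ. In the data 33.9% of unigenes were called and the spread was wider in roots than in fruits. The simulated rates are therefore not error rates of the calls reported here.

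The comparison and all lists were chosen with earlier results of these data known. Unigenes were described by rule: in each role group up to 2 with the largest and 2 with the most negative log2 fold change among those called, those that the study's text names, and the 2 extremes in each direction with a mean of at least 100 normalized counts. Unigenes of 1 enzyme family that the rule selected are not reported here. Any other unigene given with values was chosen after its values were seen. No unigene sequence was used here, so no position in a genome is given. The KEGG rows for carotenoid and zeatin biosynthesis share 10 of 21 identifiers each and the anthocyanin row shares 14 of its 15 with indole alkaloid biosynthesis, so these 3 rows were left out. Alternatives covered scaling, filtering, the libraries fitted, a replicate block, DESeq2 1.42.0 (Wald test), the edgeR exact test, thresholds and leaving out each library.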

Additional observations from a re-analysis of the deposited data

How the results depend on the processing

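No unigene called in either direction was called in the opposite one under any alternative. With a log2 fold change beyond 2 required, the DEGs between fruits and roots numbered 10013, 5629 higher and 4384 lower, and with at least 10 summed counts for detection, 2410 were detected in fruits alone and 3525 in roots alone. Leaving out each of the 15 libraries in turn gave 19066 to 21137 calls, 9866 to 10703 higher and 8796 to 10976 lower, and 248 to 265 called members of the KEGG rows. The share higher among the calls was 52.3%, and 47.8 to 48.3% when a leaf bud library, stem replicate 1 or stem replicate 3 was left out. Scaling by library totals gave 7847 higher and 13480 lower. Fitting the 6 libraries alone gave 17030 calls with 45.9% higher and a median log2 fold change of -0.12 over all unigenes, and 16863 to 19720 calls when each of the 6 was then left out, an alternative added after seeing the data. The DESeq2 Wald test called 19814, the exact test 19807, DESeq2 size factors 19475, no filter 23037 and a filter of 1 CPM in 3 libraries 16570. The replicate numbers are shared by fruits and roots, and whether they pair them is not stated. The deviations of same-numbered libraries correlated at -0.12, 0.07 and -0.13, and those of differently numbered libraries at -0.15 to 0.20. With 3 libraries per organ these values cannot decide whether the numbers pair the organs. A replicate block gave 19119 calls and kept 97.5% of the calls. Over the 59 unigenes that the rule selected, 1706 of 1708 alternative values stayed on the same side of the threshold. The exceptions were Cluster-12235.2000 (glutamine synthetase; adjusted p 0.133 in the DESeq2 Wald test) and Cluster-12235.28045 (PMVK; log2 fold change 0.84 with library totals). The cause was not tested for either. The 59 were chosen for large differences in these data or because the study's text names them, so this stability is fixed in part by that choice. These values do not cover the alternative threshold of 2, which PMVK (1.16) and KAT2 (1.37), among others, would not pass. Depth limits the statements on unigenes without a count in 1 organ, whose differences are bounds.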
